A study of Drosophila melanogaster with 12 samples.

Results

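Wing discs of ash1 mutant larvae that were supplied with an ASH1 protein without its BAH domain and with a mutated first AT hook were compared with wing discs of wild-type larvae. The comparison takes the 3 libraries labelled EGFP::ASH1DBAH mutAT1 and the 3 labelled WT, 6 of the 12 RNA-seq libraries of the study. It asks which transcripts differ from wild type when ash1 mutant discs are supplied with the doubly altered protein. The ΔBAH mutAT1 larvae were w[1118] and carried the transgene pTub-EGFP::ASH1 DBAH mut AT1, marked by w+, together with ash1[10]/ash1[22], and the wild-type larvae were w[1118]. The transgene expresses an EGFP-tagged ash1 cDNA from the alpha-tubulin promoter and is inserted at a landing site on 2L. The ash1[22] allele stops translation early, and ash1[10] changes the SET domain and leaves a full-length protein without catalytic activity. The ΔBAH mutAT1 discs can therefore hold this catalytically inactive endogenous protein, with intact BAH domain and AT hooks, beside the tagged one. The remaining libraries, 3 of the same tagged protein without only the BAH domain (ΔBAH) and 3 of the tagged full-length protein (ASH1 WT), come from the same ash1[10]/ash1[22] background and are used only to show where ΔBAH mutAT1 differs from them. Larvae were raised at 25 degrees, and each library comes from an independent RNA preparation of discs from 3rd instar larvae.

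ASH1 is a Trithorax group protein, one of the regulators that keep genes in an active state through cell divisions, and it methylates lysine in the tail of histone H3 through its SET domain. Its BAH domain is a module found in many chromatin proteins, and AT hooks are short arginine-rich motifs that bind the minor groove of AT-rich DNA. In wing discs, the larval epithelial sacs that give rise to the wing and the thorax, Trithorax proteins are best known for maintaining the Hox gene Antp and for opposing the Polycomb group proteins.

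Total counts lay between 16706895 and 36837815 in the ΔBAH mutAT1 libraries and between 16408197 and 39180697 in wild type. Replicate numbers coincide with blocks of consecutive library numbers, so that each number holds 1 library of either genotype, and libraries with the same number deviated together. Larval fat body markers stood apart in wild type replicate 1, where the summed level of the 9 matched markers was 2976 CPM (counts per 1e6 counts of the library after TMM scaling), against 18.2 and 380.2 CPM in wild type replicates 2 and 3 and 28.1 to 273 CPM in ΔBAH mutAT1. Markers of the disc epithelium itself summed to 2113 to 3334 CPM in ΔBAH mutAT1 and 2451 to 3799 CPM in wild type, with none of the 9 at 0.

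The ash1 gene (FBgn0005386; 3L:19590773-19598755 of BDGP6) was higher in each ΔBAH mutAT1 library. Its level was 343, 182 and 417 CPM in ΔBAH mutAT1, against 85.6, 99.1 and 112 CPM in wild type, from 12530, 6952 and 6988 counts and 3396, 2915 and 1822 counts. The groups did not overlap, and the log2 ratios within pairs were 2.00, 0.88 and 1.89, smallest in replicate 2. The log2 fold change was 1.67 (standard error 0.44), which missed the threshold in the fit of all 12 libraries (adjusted p = 0.103, Benjamini-Hochberg, quasi-likelihood test of edgeR). With the replicate number as a block it was 1.60 and passed it (adjusted p = 0.00201). Reads from the mutant endogenous alleles and the transgene are summed in these counts, so they check the genotype labels only in part.

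The second check is w, the white gene that serves as transgene marker and encodes an ABC transporter for eye pigment precursors. It stood at 43.1, 46.6 and 35.2 CPM in ΔBAH mutAT1, against 0.630, 3.94 and 0.554 CPM in wild type (log2 fold change 4.58, standard error 0.71, adjusted p = 0.00586 in the edgeR test). The log2 ratios within the pairs of equal number were 6.10, 3.56 and 5.99, and wild type replicate 2 had 116 counts of w, against 25 and 9 in the other wild-type libraries. In ΔBAH, w was at 36.8, 33.1 and 30.97 CPM, while in ASH1 WT, whose label also gives w+, it was at 0.984, 0.308 and 0.227 CPM.

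Of the 8346 genes that passed the filter on low counts, 181 (2.17%) differed between ΔBAH mutAT1 and wild type at an adjusted p below 0.05, 112 of them higher (1.34%) and 69 lower (0.827%). More than 2-fold changes made up 156 of the calls (1.87% of the genes tested), 103 upward (1.23%) and 53 downward (0.635%). Without adjustment, 674 genes had a p below 0.05 (8.08%). For 47 genes the change was more than 8-fold up and for 19 genes more than 8-fold down, and the median absolute log2 fold change was 2.29, against 0.15 over all genes tested. In all 181 the 3 ΔBAH mutAT1 libraries lay on the same side of the 3 wild-type libraries, a separation seen at 1165 of all genes tested (14%). The mean of the higher genotype exceeded 10 CPM in 92 of the 181 and 100 CPM in 18. No wild-type library had more than 3 counts for 17 of the higher genes, and no ΔBAH mutAT1 library had more than 3 counts for 8 of the lower ones.

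When libraries of the same number were treated as pairs (the replicate block), 1014 of 8253 genes passed (12.3%), 456 higher (5.53%) and 558 lower (6.76%). They included 177 of the 181. Leaving out any single library gave 94 to 127 calls, down to 28 lower genes without wild type replicate 2. Genes that passed with the block alone were mostly changed by little, with a median absolute log2 fold change of 0.42. With the block of library numbers as a covariate in the fit of all 12 libraries, 538 genes passed (6.45%), 278 higher (3.33%) and 260 lower (3.12%), all 181 among them. The common coefficient of variation between replicates was 32.0% in the fit of all 12 libraries and 10.2% in the paired fit.

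**Figure D1:**
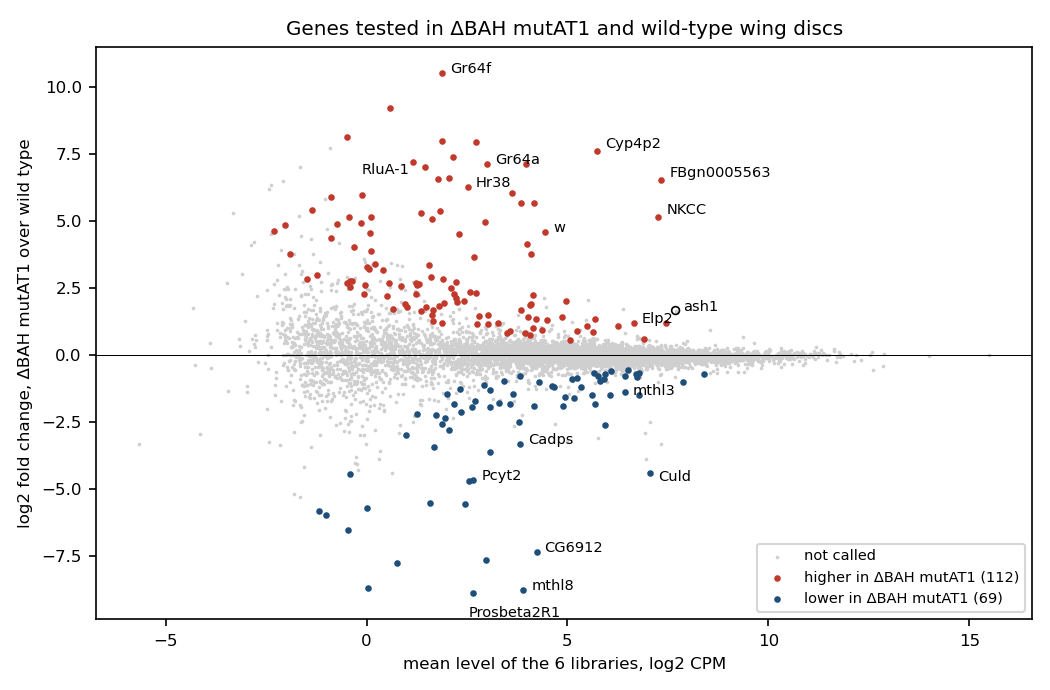
Log2 fold change of ΔBAH mutAT1 over wild type (y axis) against the mean level of the 6 libraries in log2 CPM (x axis), 1 point per gene tested. The 112 genes called higher are red, the 69 called lower are blue, the rest grey, and ash1, which was not called, is circled. NKCC, Cyp4p2 and FBgn0005563 combine a large increase with a high level, and Culd is the most strongly lowered gene at a comparable level.

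The leading genes among those that rose encode transporters, receptors and enzymes of several kinds. NKCC (FBgn0051547, on 3R), a sodium, potassium and chloride cotransporter, was at 313, 323 and 262 CPM in ΔBAH mutAT1, against 6.86, 7.85 and 10.3 CPM in wild type (log2 fold change 5.17, standard error 0.21, adjusted p = 4.17e-07). It was the most abundant of these 12 genes. CG12129 was at 34.9, 36.8 and 34.9 CPM, against 0.681, 0.714 and 0.677 CPM in wild type (log2 fold change 5.67, standard error 0.29, adjusted p = 1.44e-06).

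Sugar receptor genes of the Gr64 cluster on 3L rose together. These gustatory receptors are known from taste neurons, where they detect sugars, and of 57 annotated gustatory receptor genes 6 passed the filter on low counts. The 4 that were called, Gr64a, Gr64b, Gr64c and Gr64f, had at most 4 counts in any wild-type library and so passed the filter only through the transgenic libraries. Their number and common direction therefore follow in large part from the filter, and the count is given as a description beside the 2.17% called among all genes. Gr64a was at 14.01, 18.7 and 15.2 CPM in ΔBAH mutAT1, against 0.101, 0.0680 and 0.185 CPM in wild type, and Gr64c at 8.54, 7.41 and 10.4 CPM, against 0.0252, 0.0680 and 0.0616 CPM (log2 fold changes 7.15 and 7.38). Gr64f had 290, 289 and 112 counts in ΔBAH mutAT1 and 0 in every wild-type library, which makes it at least 61.2-fold higher with 3 counts per library as the floor. Gr64b had 248, 133 and 99 counts in ΔBAH mutAT1, against 1, 0 and 2 in wild type, a ratio of 149 (95% counting interval 50.8 to 726). Gr64b and Gr64c share their coordinates in the annotation, so their counts cannot be separated with certainty. CG11594, the gene next to Gr64a, rose as well, to 32.4, 26.1 and 26.7 CPM in ΔBAH mutAT1, against 1.13, 0.170 and 0.185 CPM in wild type (named here because of its position).

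Of 35 cytochrome P450 genes tested, enzymes that oxidise hormones, fatty acids and foreign compounds, 3 rose and 1 fell. Over all genes tested 1.34% were higher and 0.827% lower. The 3 that rose had very low counts in wild type and passed the filter on low counts mainly through the transgenic libraries. Their direction therefore follows in large part from the filter. Cyp4p2 was at 121, 85.999 and 109 CPM in ΔBAH mutAT1, against 0.454, 0.204 and 1.11 CPM in wild type, and its neighbour Cyp4p1 at 28.95, 19.7 and 23.2 CPM, against 0.202, 0.272 and 0.739 CPM (log2 fold changes 7.62 and 6.04, adjusted p = 4.35e-06 and 1.21e-05 in the edgeR test). These 2 genes lie 210 bp apart, and hig, which overlaps Cyp4p2 in position, was higher too (log2 fold change 3.89). Cyp6t1 had 12, 17 and 7 counts in ΔBAH mutAT1, against 1, 0 and 0 in wild type. Cyp4e2 was the P450 gene that fell in the fit of all libraries, to 9.52, 5.99 and 4.30 CPM in ΔBAH mutAT1, against 18.96, 19.5 and 16.4 CPM in wild type (log2 fold change -1.46, standard error 0.28, adjusted p = 0.0217). With the replicate block 4 of 30 were higher and 4 lower, beside 5.53% and 6.76% of all genes. With the covariate for library numbers 4 were higher and 2 lower, beside 3.33% and 3.12% of all genes. The median log2 fold change of the family was 0.16, beside -0.0026 for all genes tested.

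The other genes among the leading 12 were ppk29, sunn, CG15236, Oseg5 and CG18547. ppk29, a subunit of the DEG/ENaC sodium channel family, was at 28.9, 31.8 and 27.03 CPM in ΔBAH mutAT1, against 6.83, 5.71 and 6.16 CPM in wild type (log2 fold change 2.23, standard error 0.15, adjusted p = 1.21e-05). sunn, which is needed for cohesion of sister chromatids in meiosis, was at 8.18, 10.4 and 9.91 CPM, against 0.328, 0.442 and 0.493 CPM in wild type. Oseg5, a component of the machinery that transports cargo in cilia, was at 5.23, 4.42 and 5.25 CPM in ΔBAH mutAT1, against 0.202, 0.0680 and 0.0616 CPM. Both were scarcely counted in wild type. CG15236 was at 34.6, 20.8 and 38.4 CPM in ΔBAH mutAT1, against 0.202, 0.136 and 0.369 CPM in wild type, and CG18547 at 29.5, 31.6 and 29.8 CPM, against 2.14, 1.53 and 1.35 CPM.

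Among the lists and families with few calls, Hr38 was the only member of the ecdysone list called higher. It encodes the fly NR4A nuclear receptor, a partner of Usp, and was at 11.001, 9.06 and 13.96 CPM in ΔBAH mutAT1, against 0.0252, 0.170 and 0.308 CPM in wild type (log2 fold change 6.28, standard error 0.66, adjusted p = 0.000431). Of 12 serpins, inhibitors of serine proteases, Spn47C (8.68, 4.14 and 6.92 CPM in ΔBAH mutAT1, against 0.958, 1.09 and 0.616 CPM) and Spn42De (6.87, 9.97 and 5.43 CPM, against 1.49, 1.60 and 1.54 CPM) rose. Over all genes tested 1.34% were higher. With the replicate block 3 of 9 serpins were higher and 1 lower, beside 5.53% and 6.76% of all genes. Ir76a, an ionotropic receptor gene within 1 Mb of ash1, was at 8.16, 9.40 and 7.10 CPM in ΔBAH mutAT1, against 0.151, 0 and 0.0616 CPM in wild type. Hr38 and Ir76a had very low counts in wild type and passed the filter on low counts mainly through the transgenic libraries. The direction of both therefore follows in large part from the filter. FBgn0005563, an identifier without a match in the annotation, was the most abundant of the genes called higher, at 379, 195 and 386 CPM in ΔBAH mutAT1, against 3.10, 1.80 and 5.60 CPM in wild type (log2 fold change 6.536; chosen after its values were seen). Replicate 2 was the lowest of its ΔBAH mutAT1 libraries, as it was for ash1.

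**Figure D2:**
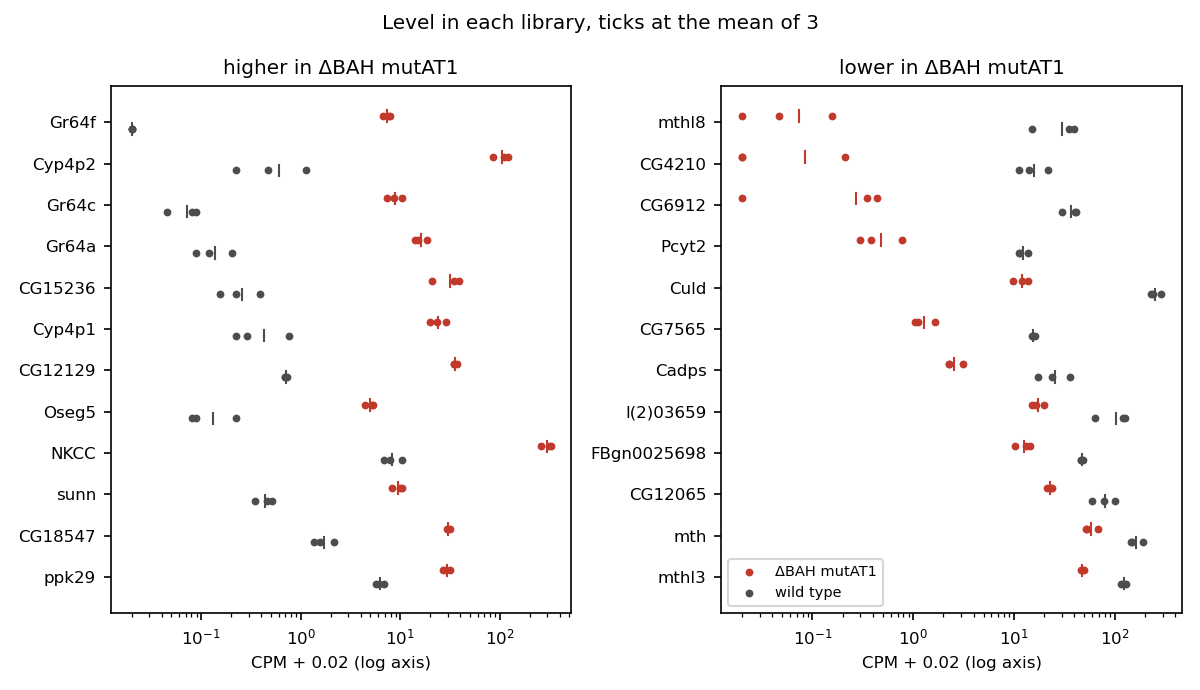
Level of the 12 leading genes by p in each direction, in each of the 3 ΔBAH mutAT1 (red, upper row of each gene) and 3 wild-type libraries (grey, lower row), as CPM + 0.02 on a log axis, with ticks at the means. The groups do not overlap for any of the 24 genes, and wild-type points of Gr64f lie at 0 counts, as do single ΔBAH mutAT1 points of mthl8 and CG6912 and a pair of points of CG4210.

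Among the genes that fell, Culd had the smallest p and the highest wild-type level of the 12. It encodes a membrane protein with CUB and LDLa domains known from photoreceptors, and was at 13.8, 11.99 and 9.91 CPM in ΔBAH mutAT1, against 289.8, 228 and 241 CPM in wild type (log2 fold change -4.41, standard error 0.19, adjusted p = 4.17e-07). Its neighbour CG7182 was lower by less, at 45.8, 41.1 and 38.7 CPM in ΔBAH mutAT1, against 77.2, 76.5 and 79.6 CPM (log2 fold change -0.89). Cadps, which primes dense-core vesicles for release, was at 2.27, 3.11 and 2.27 CPM in ΔBAH mutAT1, against 17.3, 23.8 and 36.5 CPM in wild type. Pcyt2 encodes an enzyme of phosphatidylethanolamine synthesis, and was at 0.274, 0.759 and 0.358 CPM in ΔBAH mutAT1, against 11.6, 13.7 and 11.2 CPM in wild type (log2 fold changes -3.33 for Cadps and -4.67 for Pcyt2). Pcyt2 was the single member of the 10 tested genes of the sugar, insulin and lipid list to be called, beside 2.17% of all genes.

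Some genes were close to undetected in ΔBAH mutAT1. CG6912 had 12, 0 and 7 counts in ΔBAH mutAT1, against 1661, 1183 and 483 in wild type, and CG4210 had 7, 0 and 0, against 563, 636 and 184. Both kept the direction whichever library was left out, with log2 fold changes of -7.94 to -6.60 for CG6912 and -11.55 to -6.68 for CG4210. Prosbeta2R1, a paralogue of the proteasome subunit beta2 known from testis, was at 0.0547, 0 and 0 CPM, against 15.45, 12.8 and 9.17 CPM in wild type, and CG12111 had 0 counts in every ΔBAH mutAT1 library, against 122, 62 and 16 counts in wild type (both named after their values were seen). CG7565, CG12065 and 2 others fell by less. FBgn0010549, a transporter of the ABC family, was at 16.7, 15.2 and 19.9 CPM in ΔBAH mutAT1, against 126, 64.4 and 121 CPM in wild type. CG7565 was at 1.64, 1.10 and 1.01 CPM in ΔBAH mutAT1, against 15.3, 16.3 and 15.3 CPM, and CG12065 at 23.9, 21.3 and 23.3 CPM, against 79.3, 102 and 60.1 CPM. FBgn0025698, without a match in the annotation, was at 13.3, 10.4 and 14.3 CPM, against 48.3, 46.4 and 46.3 CPM in wild type.

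The methuselah family of G protein-coupled receptors, named for the long life of mth mutant flies, had 3 members among the 12 lowered genes with the smallest p. This family was looked at after its values were seen. Of its 10 tested members, 4 fell, mth, mthl3, mthl4 and mthl8, and 6 were not called, beside 0.827% of all genes lower. With the replicate block 4 members were lower and 1 higher, beside 6.76% and 5.53% of all genes. With the covariate for library numbers 4 were lower and 2 higher, beside 3.12% and 3.33% of all genes. mth was at 52.5, 69.2 and 53.7 CPM in ΔBAH mutAT1, against 146, 191 and 151 CPM in wild type (log2 fold change -1.47, standard error 0.18, adjusted p = 0.00122). The adjacent genes mthl3 and mthl4 on 2R were at 49.5, 47.6 and 46.4 CPM and 18.5, 21.7 and 13.4 CPM in ΔBAH mutAT1, against 131, 117 and 124 CPM and 56.3, 61.4 and 43.5 CPM in wild type (log2 fold changes -1.38 and -1.59). mthl8 had 5, 1 and 0 counts in ΔBAH mutAT1, against 1388, 1158 and 244 in wild type. Within pairs, the log2 ratios of mth (-1.47, -1.46 and -1.49), mthl3 (-1.40, -1.30 and -1.42) and mthl4 (-1.61, -1.50 and -1.70) lay close together.

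Of 14 UDP-glycosyltransferases tested, enzymes that conjugate small molecules, Ugt36D1 rose (52.9, 45.4 and 48.2 CPM in ΔBAH mutAT1, against 26.4, 27.4 and 24.4 CPM) and Ugt302K1 (33.1, 35.2 and 35.98 CPM, against 85.996, 114.7 and 93.7 CPM) and Ugt50B3 (2.30, 1.96 and 2.21 CPM, against 4.99, 7.54 and 4.93 CPM) fell. Over all genes tested 1.34% were higher and 0.827% lower. With the replicate block 2 of 12 UDP-glycosyltransferases were higher and 3 lower, beside 5.53% and 6.76% of all genes. TwdlT, a cuticle protein gene of the Tweedle family, fell to 3.72, 5.10 and 1.61 CPM in ΔBAH mutAT1, against 13.8, 17.1 and 9.30 CPM in wild type. None of 31 tested Cpr, Lcp and Ccp cuticle genes, 24 glutathione S-transferases, 74 cytoplasmic ribosomal protein genes or 76 snoRNA genes was called. With the replicate block, where 12.3% of all genes passed, 7 of 27 cuticle genes (5 higher, 2 lower), 6 of 23 glutathione S-transferases (3 higher, 3 lower), 5 of 74 ribosomal protein genes (all higher) and 0 of 68 snoRNA genes passed. Among lncRNA and antisense genes, 1 of 24 was called, beside 2.17% of all genes. It was asRNA:CR42254 (3.42, 5.76 and 2.51 CPM in ΔBAH mutAT1, against 1.49, 1.26 and 0.924 CPM). Since the use of strand in the counting is not stated, its reads may include those of an overlapping gene.

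Genes that act with or against ASH1 showed no call. None of 18 tested Polycomb group genes was called, with a median log2 fold change of -0.01, and none of 15 Trithorax group genes, with a median of -0.06. The paired fit called 1 Polycomb gene, ph-p (-0.27), and besides ash1 the Trithorax gene tna (-0.40, adjusted p = 0.00361 by edgeR). In that fit 12.3% of all genes passed. MRG15, a subunit of the ASH1 complex, was at 61.1, 58.3 and 51.4 CPM in ΔBAH mutAT1, against 57.1, 50.3 and 51.9 CPM in wild type. Of the 8 Hox genes, 4 passed the filter and none was called. Antp, which specifies the second thoracic segment, was at 109.5, 103 and 119.8 CPM in ΔBAH mutAT1, against 128, 131 and 129 CPM in wild type (log2 fold change -0.22, adjusted p = 1, and 0.094 with the block). Its groups did not overlap. Ubx was at 13.98, 7.43 and 10.7 CPM, against 37.1, 7.85 and 5.54 CPM, the first of the wild-type values standing far above the others.

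None of 29 tested patterning genes of the disc was called, with a median log2 fold change of -0.16. In 19 of the 29 the ΔBAH mutAT1 library was the lower of the pair in all 3 replicates, against 26.5% of all genes tested. The paired fit called 4 of them lower: pnr (-0.39), salr (-0.35), mirr (-0.30) and Dll (-0.28), which encode transcription factors of the notum, the wing blade, the dorsal region and the distal appendage. These were 13.8% of the list, beside 12.3% of all genes called and 6.76% lower in that fit, and with the covariate for library numbers 0 of the 29 passed.

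The ecdysone response list had 16 tested members, of which only Hr38 was called in the fit of all libraries, beside 2.17% of all genes. Its median log2 fold change was -0.27, and 10 members (62.5%) were lower in all 3 pairs, beside 26.5% of all genes tested. With the replicate block 7 members were lower, beside 6.76% of all genes in that fit, and with the covariate for library numbers 4 were lower, beside 3.12% of all genes. Hr3, an early-late nuclear receptor of the ecdysone cascade, was at 87.8, 99.6 and 117 CPM in ΔBAH mutAT1, against 254, 171 and 184 CPM in wild type (adjusted p = 0.0729 in the fit of all libraries, and log2 fold change -0.99 with adjusted p = 0.00625 with the block). ImpE2, an ecdysone-inducible secreted protein of everting discs, was by far the most abundant member, at 4274, 6166 and 4713 CPM in ΔBAH mutAT1, against 6902, 7752 and 7543 CPM (log2 fold change -0.56, adjusted p = 0.00272 with the block). The others were Eip78C (-0.73), Blimp-1 (-0.77), ImpE3 (-0.51), ImpE1 (-0.48) and Eip75B (-0.31). The receptor genes themselves, EcR and usp, had log2 fold changes of 0.02 and -0.11 and did not pass. ftz-f1 was at 20.7, 10.3 and 17.2 CPM in ΔBAH mutAT1, against 7.69, 8.22 and 12.4 CPM in wild type, higher in each pair without passing (adjusted p = 0.0569 with the block).

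**Figure D3:**
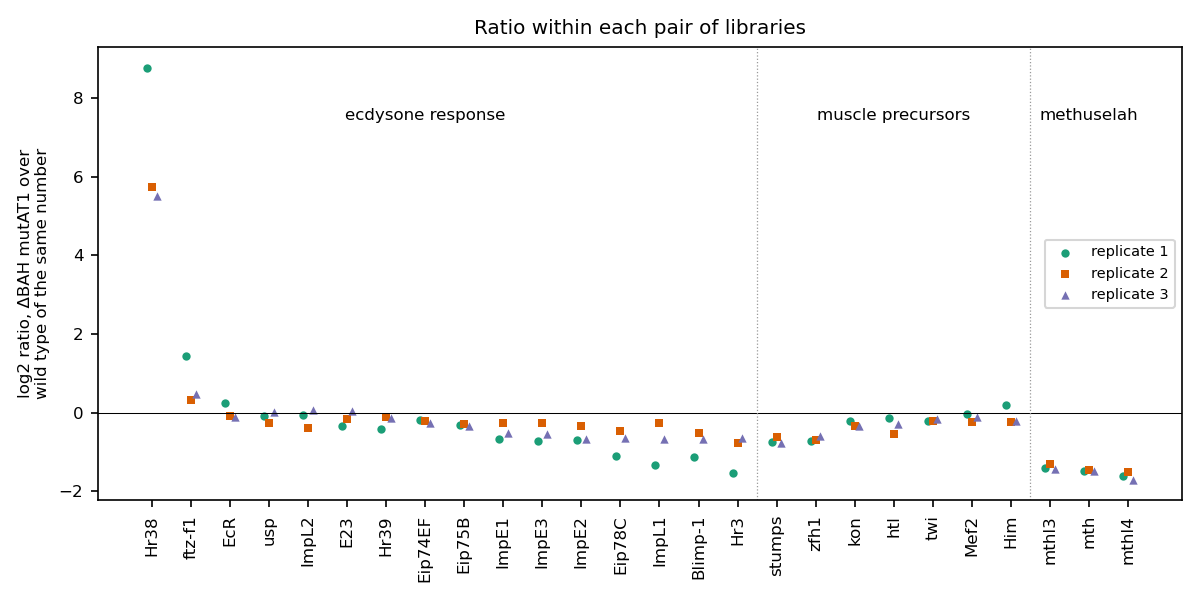
Log2 ratio of ΔBAH mutAT1 over the wild-type library with the same replicate number, 1 point per pair, for the 16 tested ecdysone response genes, the 7 adult muscle precursor genes and 3 methuselah genes. Hr38 lies above 5 in each pair, 10 ecdysone genes lie below 0 in all pairs, and the 3 methuselah genes lie between -1.70 and -1.30.

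Of the adult muscle precursor markers, 7 were tested and 1 fell, beside 0.827% of all genes tested. stumps, the adaptor of the FGF receptors, was at 40.5, 54.6 and 45.6 CPM in ΔBAH mutAT1, against 67.4, 83.5 and 77.3 CPM in wild type (log2 fold change -0.70, standard error 0.15, adjusted p = 0.0434). With the block zfh1 (-0.68) and kon (-0.30) were lower too, beside 6.76% of all genes in that fit. In every pair 6 of the 7 were lower, beside 26.5% of all genes tested. With the covariate 2 of the 7 were lower, beside 3.12% of all genes. The summed level of the list was 257 to 282 CPM in ΔBAH mutAT1 and 312 to 370.1 CPM in wild type, without overlap. The sums of the disc epithelium markers were also lower in each pair (2757, 2113 and 3334 CPM in ΔBAH mutAT1, against 2882, 2451 and 3799 CPM in wild type), as were those of the trachea markers (1432, 1723 and 1586 CPM, against 1707, 2067 and 1943 CPM in wild type), and the part of either in the values of muscle precursor and patterning genes was not tested. In bulk tissue fewer cells of a type and less RNA per cell cannot be told apart. twi, the defining factor of these cells, was at 30.5, 34.8 and 27.4 CPM in ΔBAH mutAT1, against 35.1, 40.4 and 30.6 CPM in wild type (log2 fold change -0.19).

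In the fit of all libraries, stress and damage genes showed 2 calls, both lower, beside 0.827% of all genes lower. Hsp67Ba, a small heat shock protein gene, was at 251, 246 and 282 CPM in ΔBAH mutAT1, against 442, 413 and 400.5 CPM in wild type (log2 fold change -0.69, standard error 0.14, adjusted p = 0.0263). It was the single call among 14 tested genes for heat shock and oxidative stress, and with the block 5 of 13 were lower and 1 higher, beside 6.76% and 5.53% of all genes. With the covariate for library numbers 1 was lower and 0 higher, beside 3.12% and 3.33% of all genes. Of 18 genes of JNK signalling, damage and apoptosis, Mmp1, a matrix metalloproteinase that remodels the basement membrane, was at 72.3, 75.5 and 73.2 CPM, against 103, 109 and 111 CPM in wild type (log2 fold change -0.55, standard error 0.11, adjusted p = 0.0323). With the block 3 of these 18 were lower (Mmp1, kay and Gadd45) and 2 higher, egr (0.55), the fly TNF ligand, and Atf3 (0.42), a bZIP transcription factor. Over all genes the block gave 6.76% lower and 5.53% higher. With the covariate 2 of the 18 were lower and 0 higher, beside 3.12% and 3.33% of all genes. The JNK target puc was not called (46.96, 51.6 and 49.4 CPM in ΔBAH mutAT1, against 48.9, 59.7 and 42.6 CPM), and the cell death genes rpr and hid had log2 fold changes of 0.08 and -0.02. None of 12 tested antimicrobial peptide and immune genes was called in the fit of all libraries. With the block 1 of the 12 was higher and 0 lower, beside 5.53% and 6.76% of all genes.

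Markers of other tissues that can adhere to dissected discs were not called in the fit of all libraries. Hemocyte markers (12 tested) summed to 237 to 344 CPM in ΔBAH mutAT1 and 233 to 304 CPM in wild type, and larval muscle markers (10 tested) to 101 to 124 CPM in ΔBAH mutAT1 and 91.1 to 141 CPM in wild type. The 10 salivary gland markers summed to 2.38 to 10.6 CPM in ΔBAH mutAT1 and 0.544 to 13.2 CPM in wild type, with ng1 and ng2 at 0 in both. The 8 tested fat body genes had a median log2 fold change of -2.996 without a call, and wild type replicate 1 lay far above the other libraries. Fbp1, for instance, was at 62.9, 52.3 and 4.83 CPM in ΔBAH mutAT1, against 655, 4.01 and 12.2 CPM in wild type. Without that library 95 genes were called, 32 of them lower. Of 5 trachea markers, 4 were lower in all 3 pairs, beside 26.5% of all genes tested. With the block serp (-0.46) and verm (-0.37), chitin deacetylases, were lower, beside 6.76% of all genes in that fit. With the covariate 2 of the 5 were lower, beside 3.12% of all genes. The block also called 1 of 12 hemocyte markers and 1 of 8 fat body markers higher, beside 5.53% of all genes. It called 1 of the 8 fat body markers and 1 of 10 larval muscle markers lower. The part of these tissues in the calls was not tested.

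**Figure D4:**
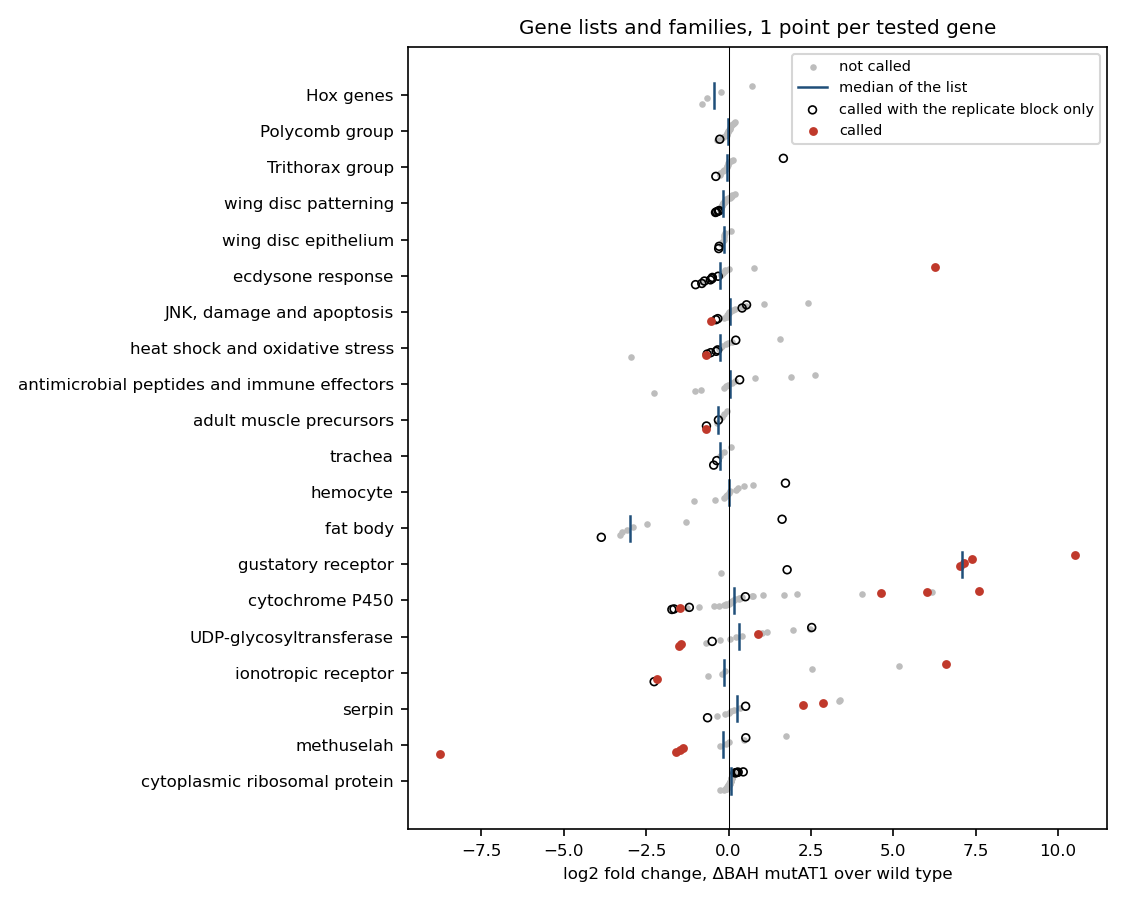
Log2 fold change of ΔBAH mutAT1 over wild type for each tested member of 20 gene lists and families. Red points passed at an adjusted p below 0.05 in the fit of all 12 libraries, open circles passed with the replicate block only, and blue ticks are medians. The 4 called gustatory receptors lie far to the right, 4 methuselah genes lie to the left, and Polycomb, patterning and, except ash1, Trithorax genes lie close to 0.

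Some of the calls made through lists lost the threshold when a single library was left out. That of Ugt302K1 was lost without ΔBAH mutAT1 replicate 1 (adjusted p = 0.0535 by edgeR) and that of Ugt50B3 without wild type replicate 2 (adjusted p = 0.0539). The calls of Spn42De, CG15080, Cyp4e2, Hsp67Ba, TwdlT, Marf1, Mmp1, CG9903, Cyp6t1, stumps and asRNA:CR42254 were each lost under several of these omissions, with highest adjusted p between 0.0821 (Spn42De) and 0.209 (stumps). Ugt36D1, Ir51a, w, RluA-1 and mthl4 kept the call without any single library and lost it only when a whole pair was left out. The direction stayed for all of these genes.

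A list of 14 tested genes that the study names from these libraries had 4 calls in this comparison, all lower: Ir51a, CG9903, CG15080 and Marf1. Over all genes tested 2.17% were called and 0.827% were lower. With the replicate block 4 of 13 were lower and 0 higher, beside 6.76% and 5.53% of all genes. It leaves out other genes that the study names, such as CG32572, for which the study gives qPCR primers. That list was chosen on the same samples and is no independent evidence of its direction. Ir51a, annotated as a pseudogene of an ionotropic receptor, was at 0.848, 0.628 and 1.13 CPM in ΔBAH mutAT1, against 4.08, 3.74 and 3.88 CPM in wild type (log2 fold change -2.18, standard error 0.32, adjusted p = 0.00387). CG15080 was at 3.09, 2.36 and 3.64 CPM, against 6.10, 10.98 and 12.6 CPM, and Marf1, a factor of meiotic RNA regulation in the female germ line, at 2.79, 2.41 and 3.64 CPM, against 9.28, 6.05 and 5.73 CPM. CG9903 had 1, 0 and 0 counts in ΔBAH mutAT1, against 32, 37 and 9 in wild type, a ratio of 83.6 (95% counting interval 14.6 to 3346).

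The mutant alleles lie on 3L and the transgene on 2L, so the positions of the called genes were counted. Of 7642 tested genes with a position, 171 were called (2.24%). The share was 3.12% on 3L, 2.9% on chromosome 4, 2.73% on 2R, 2.35% on 3R, 1.43% on 2L and 1.3% on X. On 3L, 47 of 1504 genes were called, 26 higher and 21 lower, and on X 17 of 1304. Within 1 Mb of ash1, 6 of 173 genes were called (3.47%), 5 of them higher: Ir76a, Ac76E, Gabat, CG7328 and CG5282, with CG5618 lower. Ac76E encodes an adenylyl cyclase and Gabat the enzyme that breaks down GABA, and their log2 fold changes were 2.20 and 1.81. Within 5 Mb, 15 of 567 were called (2.65%).

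Of the 171, 24 (14%) lay within 10 kb of another, against 533 of the 7471 genes that were not called (7.13%). In all 21 pairs of neighbours both genes changed in the same direction. The Gr64 cluster with CG11594 accounts for 10 of these pairs, and the others include Cyp4p1 with Cyp4p2, mthl3 with mthl4, antr with CG30486, CG18547 with CG12224 and CG12111 with CG12065. Some of these genes overlap, and their reads may have been shared in the counting. Chromosome background, position and genotype cannot be told apart in this design.

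In direct comparison with the other transgenic lines, few genes passed the threshold. The ΔBAH and ASH1 WT libraries lie only in blocks 2 and 3 of the library numbers, while ΔBAH mutAT1 also has a library in block 1. Block and line can therefore not be fully told apart in these contrasts, and few calls do not show that the lines are alike. Against ΔBAH, 4 of 8346 genes passed (0.0479%), and against ASH1 WT 4 as well (0.0479%), in each case 2 higher and 2 lower (0.024% each). In each of these contrasts 1 of the 181 genes was among them. RluA-1, a pseudouridine synthase gene on 2L, was at 5.09, 6.80 and 8.35 CPM in ΔBAH mutAT1, 0 CPM in every ΔBAH library, 2.07, 4.74 and 7.73 CPM in ASH1 WT and 0.126, 0.0340 and 0 CPM in wild type. It was thus at least 41.4-fold higher in ΔBAH mutAT1 than in ΔBAH (adjusted p = 0.0218 in the edgeR test), while it did not pass against ASH1 WT (log2 fold change 0.48, standard error 0.55). The gene called against ASH1 WT was w (log2 fold change 6.24, adjusted p = 0.0168).

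The other genes called between the lines were Cyp6a17, CG32572 and CG15128, which passed in both contrasts and not against wild type. Cyp6a17, a P450 gene known for a role in temperature preference, was at 7.31, 4.34 and 6.03 CPM in ΔBAH mutAT1, 0.107, 0 and 0 CPM in ΔBAH, 0.176, 0.431 and 0.454 CPM in ASH1 WT and 19.6, 18.9 and 19.8 CPM in wild type. ΔBAH mutAT1 therefore lay between wild type and the other lines, and its difference from wild type was just short of the threshold (log2 fold change -1.72, adjusted p = 0.0507), though not with the block (adjusted p = 0.000545). CG32572 was at 0.0821, 0 and 0.0597 CPM in ΔBAH mutAT1 and 0.0756, 0.0340 and 0.0616 CPM in wild type, while it was at 6.98, 5.35 and 5.36 CPM in ΔBAH and 7.17, 9.47 and 6.76 CPM in ASH1 WT. For CG15128, ΔBAH mutAT1 had 0 counts and wild type at most 2 in a library, beside 2.72, 0.842 and 1.54 CPM in ΔBAH and 3.83, 3.87 and 3.75 CPM in ASH1 WT.

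With the block of library numbers as a covariate, a choice made after seeing the data, 15 genes passed against ΔBAH (0.18%) and 6 against ASH1 WT (0.0719%). Of the 181, 7 were among the first and 3 among the second. mthl3 and mthl4 were in both. mthl3 was at 86.4, 94.4 and 102 CPM in ΔBAH and 67.6, 95.9 and 102 CPM in ASH1 WT, above every ΔBAH mutAT1 library and below every wild-type library, and its log2 fold change in ΔBAH mutAT1 was -0.97 against ΔBAH (adjusted p = 0.00958 by edgeR) and -0.86 against ASH1 WT (adjusted p = 0.0301). mthl4 was at 42.4, 27.1 and 29.7 CPM in ΔBAH and 35.3, 30.6 and 23.5 CPM in ASH1 WT (adjusted p = 0.00958 and 0.0318). The remaining genes of the 181 that differed from ΔBAH in this fit were FBgn0005563, lectin-24Db, CG30187 and RluA-1, all higher in ΔBAH mutAT1, and Ir51a, which was lower. FBgn0005563 was at 81.1, 263 and 250.3 CPM in ΔBAH, so its libraries overlapped with those of ΔBAH mutAT1 in level.

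The genes that led the comparison with wild type had no call against the other lines without the library blocks, which does not show that the lines are alike. NKCC was at 299 ± 32.9 CPM (SD, n = 3) in ΔBAH mutAT1, 347 ± 22.6 CPM in ΔBAH, 322 ± 32.2 CPM in ASH1 WT and 8.33 ± 1.76 CPM in wild type. Cyp4p2 was at 105 ± 17.9, 128 ± 4.37, 172 ± 1.28 and 0.589 ± 0.467 CPM in the same order, and Hr38 at 11.3 ± 2.47, 10.3 ± 4.04, 11.9 ± 4.55 and 0.168 ± 0.141 CPM. For the lowered genes, Culd was at 11.9 ± 1.96, 9.31 ± 0.595, 9.13 ± 1.12 and 253 ± 32.4 CPM, and mth at 58.5 ± 9.35, 67.1 ± 6.44, 67.98 ± 10.3 and 162 ± 24.98 CPM. The 3 lines share the ash1[10]/ash1[22] background, the landing site and the wild-type libraries they are set against, so their levels are given side by side without a count of shared calls.

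**Figure D5:**
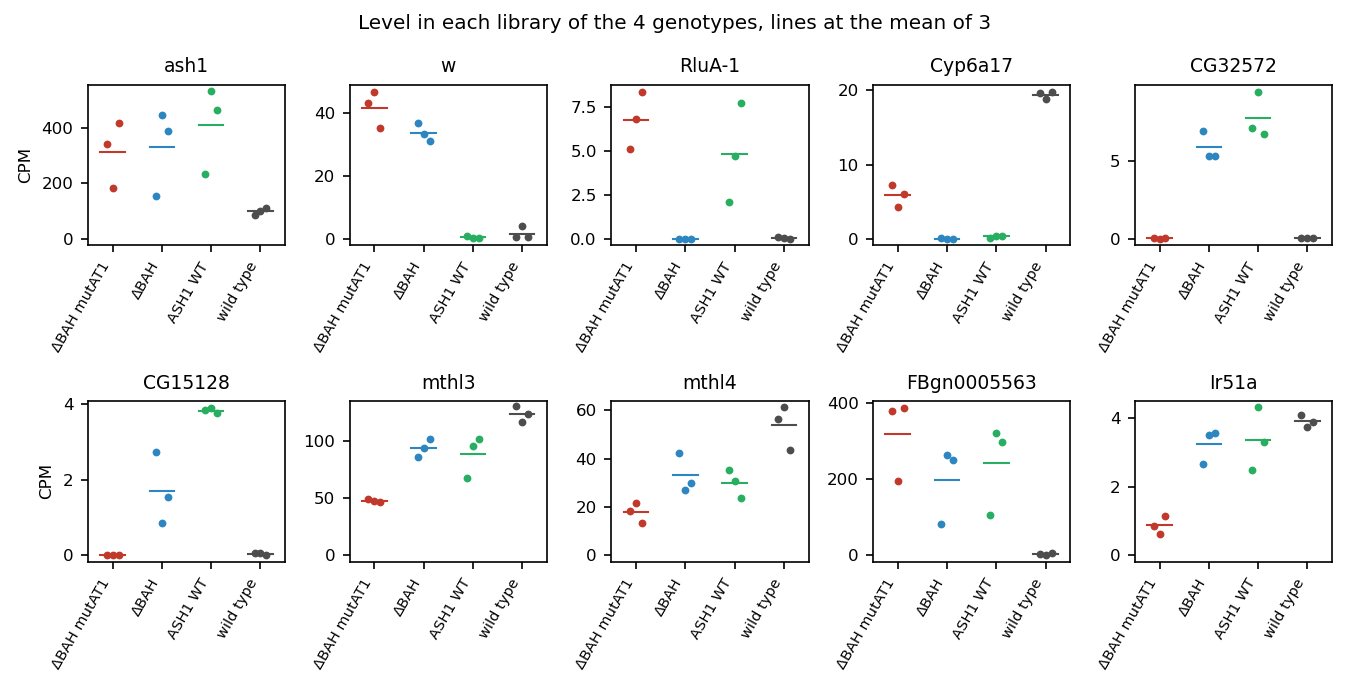
Level in CPM of 10 genes in each of the 3 libraries of ΔBAH mutAT1, ΔBAH, ASH1 WT and wild type, with lines at the means. The panels show ash1, w, the genes called between the lines, and mthl3, mthl4, FBgn0005563 and Ir51a. RluA-1 is at 0 in all ΔBAH libraries, CG32572 and CG15128 are at or near 0 in both ΔBAH mutAT1 and wild type, and mthl3 is lowest in ΔBAH mutAT1.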

How the data were processed

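Raw counts per gene of 12 wing disc libraries (4 genotypes, 3 RNA preparations each) were used as deposited. The authors mapped reads to dm3 with TopHat (2.0.9) and counted with HTSeq (0.5.4p3). How strand and reads with several positions were treated is not given in the sources used here. Symbols and positions come from BDGP6 (13524 of 14869 identifiers matched).

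All libraries entered 1 quasi-likelihood model (edgeR 4.0.16, R 4.3.3) with a term per genotype, after TMM scaling and filterByExpr (minimum count 10, prior count 0.125). The Benjamini-Hochberg adjusted p threshold was 0.05 over 8346 genes. A standard error is the absolute log2 fold change over the root of F. The code was tested on simulated data.

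Deviations from the genotype means correlated at 0.423, 0.439 and 0.486 between libraries of equal replicate number. The correlations between others were negative, which follows in part from taking deviations from a mean of 3 libraries. On the positive values the numbers were taken to pair the libraries. The fit of the 6 libraries with the number as a block is given for some genes and lists. Where it is not given, its result may differ.

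The text names ash1, w, the leading 12 called genes by p per direction whose libraries do not overlap, genes also called against ΔBAH or ASH1 WT, and at most 4 called members per list. Any other gene was named after its values were seen. The comparison and the lists were chosen with earlier results of these data known. Alternatives were RLE scaling, DESeq2 1.42.0, limma-voom 3.58.1, other filters, the blocks, the 6 libraries alone, prior count 2, and leaving out libraries or pairs. Count intervals and floors of 3 counts per library cover counting error only.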

Additional observations from a re-analysis of the deposited data

Results flagged for a closer look

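Genes for which ΔBAH mutAT1 differed from another transgenic line in a test of that difference were singled out. Against ΔBAH these were Cyp6a17 (adjusted p = 0.00127, Benjamini-Hochberg, quasi-likelihood test of edgeR, log2 fold change 6.79, higher in each ΔBAH mutAT1 library), RluA-1 (adjusted p = 0.0218, at least 41.4-fold higher), CG15128 (adjusted p = 0.0218, at least 15.02-fold lower in ΔBAH mutAT1, which was at 0) and CG32572 (adjusted p = 0.00104, log2 fold change -6.90). Against ASH1 WT they were w (adjusted p = 0.0168, log2 fold change 6.24), Cyp6a17 (adjusted p = 0.0103, log2 fold change 4.10), CG15128 (adjusted p = 0.0103, at least 33.7-fold lower in ΔBAH mutAT1) and CG32572 (adjusted p = 0.000621, log2 fold change -7.30). In each case the 3 libraries of ΔBAH mutAT1 lay on the same side of the 3 libraries of the other line. Groups of 3 libraries are too small for a test of single outlying libraries.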

How the results depend on the processing

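The number of genes that differed between ΔBAH mutAT1 and wild type (181, of which 112 higher, 69 lower and 156 over 2-fold) stayed within 1.5 times under RLE scaling, limma-voom, no filter, the length and RPKM filter, the 6 libraries alone and a prior count of 2. The genes were not all the same. Of the 181, 133 were also called with the 6 libraries alone, 145 without the filter and 161 with the length and RPKM filter. With limma-voom 173 were called, and with RLE scaling 178. DESeq2 gave 354 (208 higher, 146 lower, 261 over 2-fold), and the covariate for library numbers 538 (278 higher, 260 lower, 276 over 2-fold). The replicate block gave 1014 (456 higher, 558 lower, 266 over 2-fold), so that 45.0% of its calls were higher, against 61.9% without it. Leaving out a library or a pair gave 60 to 127 genes (45 to 86 higher, 15 to 41 lower, 60 to 116 over 2-fold). The cause of these differences was not tested. None of the 181 genes had the opposite sign in any of these fits. Against ΔBAH the covariate gave 15 genes in place of 4.

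The log2 fold change of ash1 passed the threshold with DESeq2 (1.665), the covariate (1.56), the 6 libraries alone (1.668) and the replicate block (1.60), and lay between 1.41 and 1.94 when libraries were left out. Of 46 named genes that were called, 28 kept the call in every alternative and 0 reversed. The calls lost numbered 121 of 826 tests, with an adjusted p of at most 0.459 (edgeR, Mmp1).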

Other observations

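Further called genes fell outside the naming rule and were chosen after their values were seen. TkR86C, a tachykinin receptor, was at 0.356, 0 and 0.358 CPM in ΔBAH mutAT1, against 14.6, 10.9 and 6.34 CPM in wild type (log2 fold change -5.55, adjusted p = 0.00597 by edgeR). tipE, an auxiliary subunit of sodium channels, was at 2.35, 2.38 and 2.86 CPM, against 8.29, 10.2 and 10.8 CPM in wild type (log2 fold change -1.95), and Snap25, a SNARE protein of synaptic vesicle fusion, at 1.72, 1.47 and 0.597 CPM, against 6.08, 7.88 and 5.48 CPM (log2 fold change -2.33). The acetylcholine receptor subunit nAChRalpha1 was at 0.246, 0 and 0.119 CPM in ΔBAH mutAT1, against 5.95, 2.99 and 8.56 CPM in wild type. None of the 5 tested neuron markers was called, and their list summed to 19.3 to 53.1 CPM in ΔBAH mutAT1 and 19.03 to 64.3 CPM in wild type. In all 3 pairs 3 of the 5 were lower and 2 higher, beside 26.5% and 23.9% of all genes tested.

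Some enzymes and secreted factors were changed at moderate levels. Elp2, a subunit of the Elongator complex, which modifies tRNA, was at 133, 142 and 144 CPM in ΔBAH mutAT1, against 58.8, 60.2 and 62.01 CPM in wild type (log2 fold change 1.21, adjusted p = 0.000424 by edgeR). Ldh, lactate dehydrogenase, was at 16.3, 13.4 and 16.8 CPM in ΔBAH mutAT1, against 59.9, 36.3 and 40.8 CPM, and the malic enzyme Men at 25.1, 31.6 and 23.9 CPM, against 51.3, 53.6 and 41.9 CPM in wild type (log2 fold changes -1.56 and -0.86). daw, a ligand of the activin branch of TGF-beta signalling, was at 6.10, 4.84 and 2.27 CPM in ΔBAH mutAT1, against 14.6, 16.9 and 14.5 CPM in wild type (log2 fold change -1.79), and Fs, the fly follistatin, which binds such ligands, at 36.6, 40.7 and 40.9 CPM, against 53.4, 66.1 and 67.5 CPM (log2 fold change -0.66).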
